A study of Mus musculus with 4 samples.

Results

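The nuclei described here were leukocyte-gene nuclei, that is, nuclei from the mouse hippocampus that had taken up EdU and carried RNA of white blood cell genes. EdU is a thymidine analogue that is built into DNA during replication, so an EdU+ nucleus belonged to a cell that had copied its DNA after injection or descended from one. Each nucleus was sorted into 1 well and sequenced by Smart-seq2, which amplifies whole transcripts from a single well and does not tag molecules. A nucleus passed at 300 genes with a read and 20000 reads, and a gene was called on in a nucleus at 10 reads and 100 CPM, which scales each nucleus to 1e+06 reads. The members were chosen by these read levels. A member had at least 2 of 14 leukocyte genes on (Ptprc, S100a8, S100a9, Lyz2, Retnlg, Cd3e, Cd3g, Skap1, Ms4a4b, Nkg7, Ccl5, Gimap4, Klrd1 and H2-Ab1). It also had fewer than 2 of the microglial genes Cx3cr1, P2ry12, Tmem119 and Siglech on, and fewer than 3 of the oligodendrocyte precursor genes Pdgfra, Cspg4, Vcan, C1ql1, Cacng4, Lhfpl3, Tnr and Matn4. The rule, applied to the EdU+ libraries, was met by 56 wells of the 1536 in all 4 libraries, 17 of the 352 nuclei that passed in the EdU+ WT library and 39 of the 376 that passed in the EdU+ Fasn-R1812W library.

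The study compared WT mice with mice that carried an arginine-to-tryptophan variant of Fasn, the enzyme that makes palmitate from acetyl and malonyl units. Both groups were 8.5 months old, and the mice behind the EdU+ libraries had received 100 mg/kg EdU by intraperitoneal injection 2 times a day for 3 days, with nuclei isolated on day 4. The other 2 libraries held NeuN+ nuclei, sorted for a neuronal nuclear protein, from mice of the same age and the same 2 genotypes. Each group was 1 library, and the strain, the number of animals, any pooling of animals and whether blood was washed out of the vessels were given by no source used here.

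Circulating neutrophils and monocytes are short-lived and are replaced by dividing precursors in bone marrow, while T cells and natural killer (NK) cells can also divide outside it. Few leukocytes cross the blood-brain barrier in a healthy adult brain, but blood in the vessels, the meninges, the choroid plexus and the perivascular spaces all hold them. Neutrophils store enzymes in granules filled in order during maturation, monocytes give rise to macrophages and dendritic cells, and cytotoxic T cells and NK cells kill targets with perforin and granzymes.

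The label of these nuclei as blood-derived was checked against markers. The pan-leukocyte list, which marks all white blood cells, had a median of 7 of its 20 genes on in the WT nuclei and 9 in the Fasn-R1812W nuclei, against 3 and 4 in EdU+ microglial nuclei and 0 in EdU+ precursor nuclei of either library. P2ry12 and Tmem119, which define microglia, were on in 0 of 17 and 0 of 39, which allows shares of up to 17.6% and 7.69%. Ptprc of the first list and both microglial genes served in the choice, so these values describe it in part. Alpha and beta globin genes, which mark red blood cells, were on in 1 of 17 and 1 of 39. Of the 11 genes of the border and perivascular macrophage list, which marks macrophages at the brain's surfaces and vessels, 1 or more were on in 3 of 17 and 18 of 39 and 3 or more in 0 of 17 and 7 of 39. Its members Cd163 or Lyve1 were on in 0 of 17 and 1 of 39. Whether a leukocyte lay in blood, in a border tissue or in the brain itself cannot be told apart from these data.

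Members were split by their rule genes. A nucleus was called lymphoid when more of Cd3e, Cd3g, Skap1, Ms4a4b, Nkg7, Ccl5, Gimap4 and Klrd1 were on than of S100a8, S100a9, Lyz2 and Retnlg, myeloid in the reverse case and undivided when the numbers were equal. Smaller sets were cut after values had been seen. S100a8/S100a9 nuclei were myeloid nuclei with either of that pair on, and the rest are called other myeloid nuclei. CD3 nuclei were lymphoid nuclei with a Cd3 gene on, and NK receptor nuclei had Ncr1 or Klrb1c on and no Cd3 gene. The genes of the split are therefore described below without a test, and nothing is supported with them.

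Upstream sequences are shown for 2 genes read in the S100a8/S100a9 nuclei and 2 read in the NK receptor nuclei, because nuclei with these genes made up the largest sets of each class. S100a9 encodes a subunit of calprotectin, the main cytosolic protein of neutrophils, and lies on chromosome 3 at 90692632 to 90695721 (minus strand) in build GRCm38. Retnlg, a resistin-like gene of neutrophils, lies on chromosome 16 at 48872621 to 48874496 (plus strand). Ncr1, the NKp46 receptor of NK cells, lies on chromosome 7 at 4337724 to 4345164 (plus strand), and Gzma, granzyme A, on chromosome 13 at 113093825 to 113100981 (minus strand). Each sequence is the 250 bases before the RefSeq start of the gene, from GRCm38.p6, written 5′ to 3′ on the strand of the gene: chr3:90695722-90695971 (minus), chr16:48872358-48872607 (plus), chr7:4337465-4337714 (plus) and chr13:113100982-113101231 (minus). Capitals mark matches to TTGCNNAA, a core of C/EBP factors of myeloid cells, and to TGTGGT, a core of RUNX factors of blood cells, on either strand.
S100a9: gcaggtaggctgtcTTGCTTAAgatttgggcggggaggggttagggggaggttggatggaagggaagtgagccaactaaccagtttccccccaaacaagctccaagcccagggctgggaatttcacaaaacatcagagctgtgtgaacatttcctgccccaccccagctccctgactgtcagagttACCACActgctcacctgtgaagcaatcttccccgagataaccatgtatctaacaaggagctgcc
Retnlg: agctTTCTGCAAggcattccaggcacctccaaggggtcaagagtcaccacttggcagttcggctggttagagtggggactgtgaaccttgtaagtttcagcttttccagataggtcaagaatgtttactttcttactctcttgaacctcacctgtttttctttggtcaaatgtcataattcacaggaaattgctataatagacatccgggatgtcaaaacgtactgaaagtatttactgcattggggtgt
Ncr1: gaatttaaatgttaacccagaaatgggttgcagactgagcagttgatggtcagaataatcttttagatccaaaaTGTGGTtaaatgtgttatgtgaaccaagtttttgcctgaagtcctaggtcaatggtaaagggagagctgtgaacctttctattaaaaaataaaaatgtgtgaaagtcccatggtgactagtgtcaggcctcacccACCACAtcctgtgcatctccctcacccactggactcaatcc
Gzma: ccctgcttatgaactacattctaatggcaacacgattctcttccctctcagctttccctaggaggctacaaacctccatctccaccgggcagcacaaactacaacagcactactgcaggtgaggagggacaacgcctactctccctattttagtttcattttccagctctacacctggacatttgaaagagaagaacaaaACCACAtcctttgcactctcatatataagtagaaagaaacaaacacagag
The C/EBP letters stood 236 bases before the start of S100a9 and 246 before that of Retnlg, and in neither lymphoid window. The RUNX letters stood 64 bases before S100a9, 176 and 41 before Ncr1 and 50 before Gzma. The 2 motifs did not overlap in any of the 4 windows. Of 32851 RefSeq windows of the same length, 9.56% held the C/EBP letters and 14.05% the RUNX letters. GAGGAAGT, an ETS core held by 2.44% of windows, and AGGTGTGA, a T-box core held by 1.12%, had no match in the 4 windows. A match is a description of letters, not a site.

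Depth differed between the libraries. Total reads were 36368990 in the EdU+ WT library and 96597804 in the EdU+ Fasn-R1812W library. Members had 20856 to 251310 reads (median 61844) and 391 to 2191 genes (median 623) in WT, against 41199 to 1121901 reads (median 348602) and 1923 to 5464 genes (median 3115) in Fasn-R1812W. With every nucleus thinned to 20000 reads, the median was 553 genes in WT and 1235 in Fasn-R1812W members. The mix of sets differed between these members. Thinned medians were 516 genes in 14 WT and 880 in 7 Fasn-R1812W S100a8/S100a9 nuclei. They were 1371.5 in 2 WT and 1414 in 9 Fasn-R1812W other myeloid nuclei. All 4 libraries used the same pairs of plate indexes, no well repeated the counts of another, and 1 index pair was a member in both EdU+ libraries.

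A low level of foreign reads followed the plate indexes in the Fasn-R1812W library. S100a8, on in 7 nuclei there, had at least 1 read in 96.4% of the wells that shared both of their indexes with such nuclei, in 79.1% of those that shared one and in 1.09% of those that shared none. In the WT library the same shares were 0.971%, 1.16% and 0%. In wells of the Fasn-R1812W library that shared both indexes S100a8 had a mean of 8.07 and a highest value of 21 reads, and in wells that shared one 3.41 and 17. Removal of every value up to 10 times the reads expected from index sharing lowered the median of genes per member from 3115 to 1440 in Fasn-R1812W and left 623 in WT, and kept 99.1% and 100% of all reads. All 39 and all 17 members then still met the rule and kept their class. In Fasn-R1812W wells that shared an index and where the gene was not on, the highest values were 121 CPM for S100a9 and 114 for Ms4a4b. For Ccl5 and Nkg7 they were 110 and 108 CPM. Values of a few CPM in the Fasn-R1812W nuclei are therefore not read as expression below, and values near 100 CPM may hold such reads too. Counts after thinning, above and below, were made without removal of these reads.

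**Figure D1:**
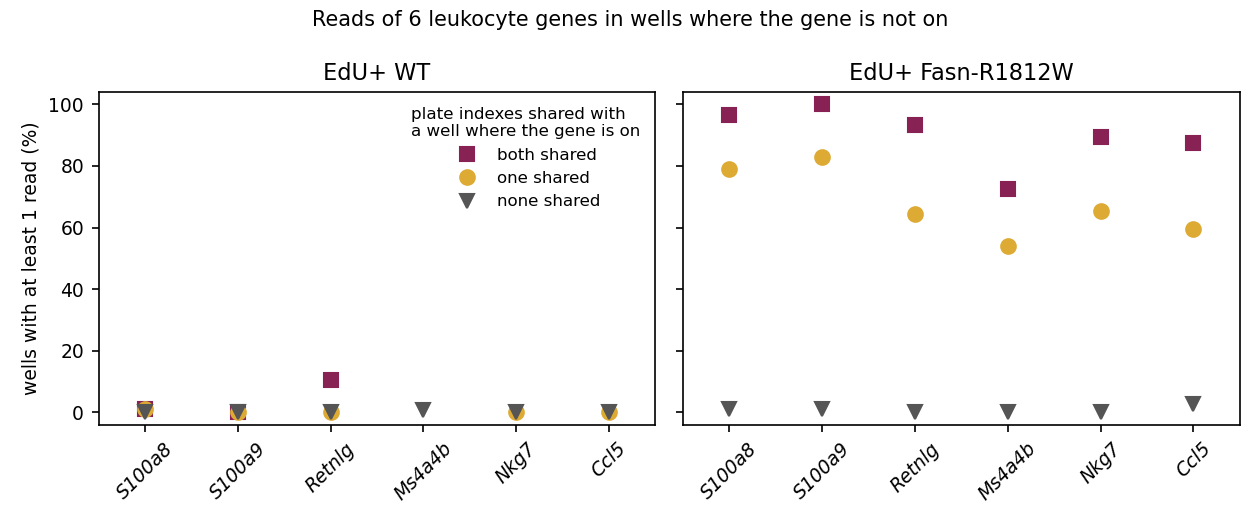
Share of wells with at least 1 read (vertical axis, %) of 6 leukocyte genes among wells where the gene was not on, by whether a well shared plate indexes with wells where it was on; left, EdU+ WT, right, EdU+ Fasn-R1812W. In the right panel S100a8 stands at 96.4% with both indexes shared and at 1.09% with none, while in the left panel it stands at 0.971% and 0%.

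Leukocyte-gene nuclei were 4.83% of the EdU+ nuclei that passed in WT (17 of 352, exact 95% interval 2.84 to 7.62) and 10.4% in Fasn-R1812W (39 of 376, 7.48 to 13.9). The difference was 5.54 percentage points (Newcombe 95% interval 1.68 to 9.47). The same rule applied to NeuN+ nuclei, which should lack leukocyte genes, found 0 of 350 in WT, which allows a share of up to 0.857%, and 1 of 352 in Fasn-R1812W (0.284%), a nucleus with 18 reads of Ptprc and 61 of Lyz2. All intervals of shares cover the counting of nuclei only, since nuclei of 1 library are not replicates, and with 1 library per genotype the difference has no replicate check, so genotype, animal, library and depth cannot be told apart.

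The classes were spread unevenly over the libraries. Nuclei classed as lymphoid by the rule were 0 of 352 in WT, which allows a share of up to 0.852%, and 16 of 376 in Fasn-R1812W (4.26%, 2.45 to 6.82), which differ by 4.26 points (2.31 to 6.80). Myeloid nuclei were 16 in each library, 4.55% and 4.26%, and differed by -0.290 points (-3.45 to 2.79). Undivided nuclei were 1 in WT and 7 in Fasn-R1812W, which differ by 1.58 points (-0.0426 to 3.52). Microglial nuclei, the brain's own macrophages, were 25 (7.10%) and 29 (7.71%) by their 4 genes and differed by 0.610 points (-3.30 to 4.47).

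Within the myeloid class the make-up differed in direction between the sets. S100a8/S100a9 nuclei were 14 in WT (3.98%, 2.19 to 6.58) and 7 in Fasn-R1812W (1.86%, 0.752 to 3.80), and the interval of their difference spanned 0 (-2.12 points, -4.87 to 0.388). Other myeloid nuclei were 2 in WT (0.568%) and 9 in Fasn-R1812W (2.39%), and that interval spanned 0 too (1.83 points, -0.0358 to 3.96). The 16 lymphoid nuclei were 6 CD3 nuclei, 7 NK receptor nuclei and 3 others.

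**Figure D2:**
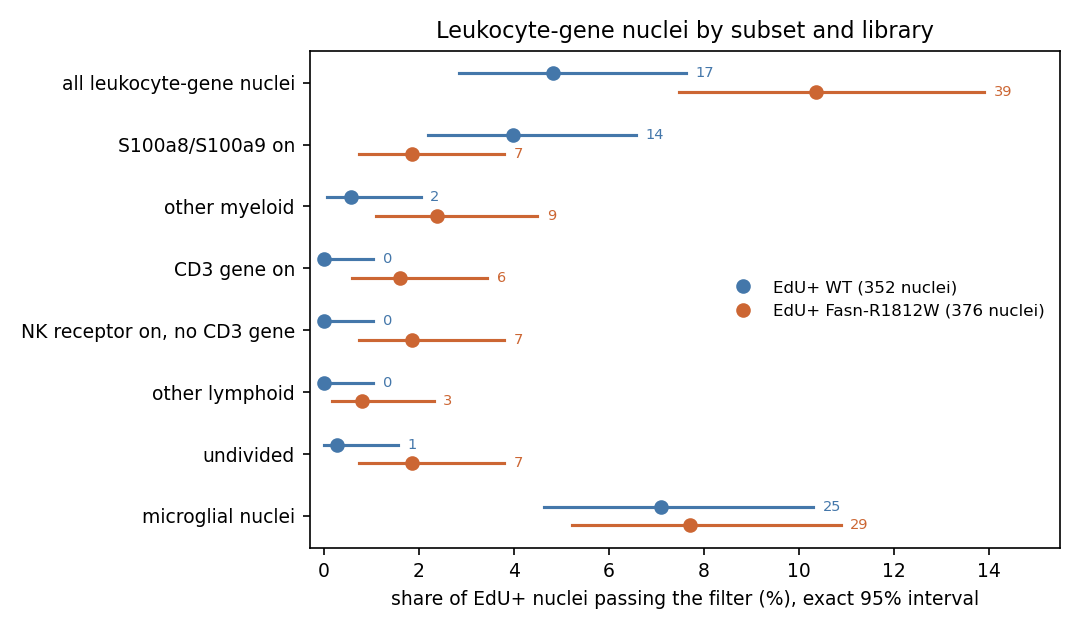
Share of EdU+ nuclei that passed the filter (horizontal axis, %) for all leukocyte-gene nuclei, for each set and for microglial nuclei; points are shares, bars exact 95% intervals that cover counting error only, and numbers beside them count nuclei. Lymphoid sets hold 0 nuclei in WT and 6, 7 and 3 in Fasn-R1812W, while microglial nuclei hold 25 and 29.

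Some nuclei lay near the rule's threshold in both libraries. In WT 2 members had exactly 2 leukocyte genes on, and 16 nuclei outside the rule had 1, which was Ptprc in 11. In Fasn-R1812W 8 nuclei had exactly 2 on, of which 5 were members and 3 were set aside for their microglial genes, and 28 nuclei had 1, which was Ptprc in 23. Ptprc encodes CD45, a phosphatase of all leukocytes that microglia also carry, and was on in 10 of 25 and 14 of 29 microglial nuclei. Outside the members of the Fasn-R1812W library, S100a8, S100a9, Retnlg, Nkg7, Ccl5 and Ms4a4b were on in 0 nuclei, while Klrd1, Skap1 and Gimap4 were each on in 1. Outside the members of the WT library Nkg7 and Cd3g were each on in 1 nucleus, and S100a8, S100a9, Retnlg, Ccl5 and Ms4a4b in 0.

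Most S100a8/S100a9 nuclei carried neutrophil genes beyond the pair that chose them. S100a8 (chromosome 3, 90668978 to 90670035, plus strand), the other subunit of calprotectin, was 0 at the lowest, 19649 at the median and 67223 at the highest CPM in the 14 WT nuclei, and 2672 at the lowest, 19279 at the median and 74833 at the highest CPM in the 7 Fasn-R1812W nuclei. S100a9 was 246 at the lowest, 17291 at the median and 67798 at the highest CPM in the WT set and 3326 at the lowest, 21969.9 at the median and 38437 at the highest CPM in the Fasn-R1812W set. The ranges of both genes overlapped between the libraries, and both were on together in 13 of 14 and 7 of 7. Retnlg, a gene of the rule, was on in 6 and 5.

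Receptors that govern the output of neutrophils from marrow were on in most of these nuclei. Csf3r, the receptor for G-CSF, the growth factor of neutrophils, was on in 11 of 14 WT nuclei (0, 7898 and 27843 CPM at the lowest, median and highest) and 7 of 7 Fasn-R1812W nuclei (566, 2865 and 21277). It was also on in 9 of 25 and 16 of 29 microglial nuclei, so it does not mark neutrophils alone here. Cxcr2, a chemokine receptor for release from marrow, was on in 12 WT nuclei (0, 1193 and 18805 CPM) and 4 Fasn-R1812W nuclei (0, 424 and 4497 CPM). One or both of Csf3r and Cxcr2 were on in 13 of 14 and 7 of 7. The mature neutrophil list holds 3 genes of the rule. Of its 19 others, a median of 7.5 were on in WT (0 to 11) and 7 in Fasn-R1812W (5 to 10), and 3 or more were on in 13 of 14 and 7 of 7.

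Genes of the secondary and tertiary granules, which form later in maturation than the primary ones, were on in part of these nuclei. Mmp8 or Mmp9, granule collagenase and gelatinase, were on in 10 of 14 and 6 of 7. Mmp9 was 0, 1296 and 5623 CPM at the lowest, median and highest among WT nuclei and 26.3, 2419.8 and 9675 CPM among Fasn-R1812W nuclei, and these ranges overlapped. Ltf, Camp and Ngp, lactoferrin, cathelicidin and neutrophilic granule protein of the secondary granules, were all on together in 1 of 14 and 2 of 7, and at least 1 of them in 4 and 2. Lcn2, lipocalin 2, another secondary granule protein, which binds bacterial iron carriers, was on in 8 of 14 and 3 of 7. Ngp reached 39539 CPM in 1 WT nucleus and 36053 CPM in 1 Fasn-R1812W nucleus, while its median was 0 in both sets. A gene of the early, primary granules (Mpo, Prtn3, Ctsg, Elane or Ms4a3) was on in 1 of 14 and in 0 of 7, which allows up to 42.9%. That 1 nucleus, with Mpo on, had 48 reads of S100a8 and carried globin and neuron genes as well (102 reads of Hbb-bs and 38 of Syt1).

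Other products of neutrophils were on in part of the nuclei. Il1b, the cytokine interleukin 1 beta, was on in 6 WT and 2 Fasn-R1812W nuclei, and Hdc, the enzyme that makes histamine, in 8 and 3. Padi4, which citrullinates histones, was on in 7 and 3. Ifitm1, an interferon-induced membrane protein, was on in 6 WT nuclei (0, 9.96 and 8453 CPM) and 0 of 7 Fasn-R1812W nuclei, where 0 allows up to 42.9% and the highest value was 8.66 CPM. No MHC class II gene was on in any of the 21 nuclei.

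**Figure D3:**
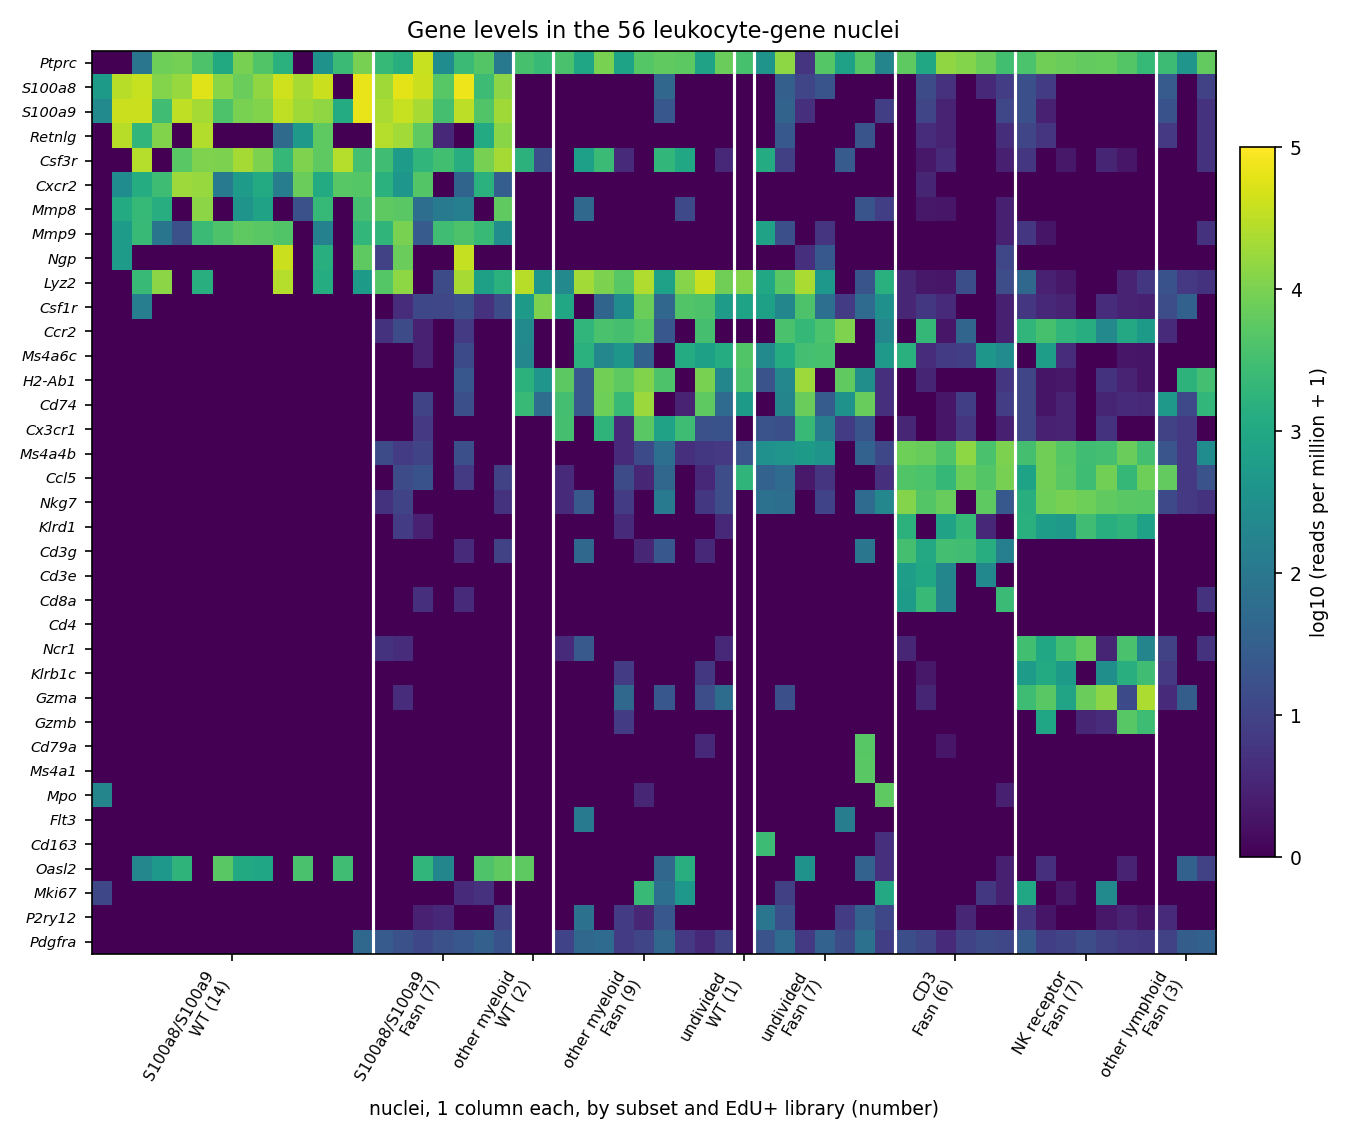
Level of named genes (rows) in each of the 56 leukocyte-gene nuclei (columns, by set and library), as log10 of CPM plus 1. S100a8 and S100a9 fill the first 2 blocks, Lyz2 and H2-Ab1 the other myeloid nuclei, and Ms4a4b, Ccl5 and Nkg7 the CD3 and NK receptor blocks; P2ry12 and Pdgfra, of microglia and precursors, are on in 0 of 56, and Cd4 is at 0 reads.

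Genes induced by interferon were read in most myeloid and undivided nuclei of both libraries and in few microglial or precursor nuclei. None of the 23 genes of this list served in the rule. With every nucleus thinned to 20000 reads and a gene called on at 2 reads, 3 or more were on in 9 of 14 WT S100a8/S100a9 nuclei (64.3%, exact 95% interval 35.1 to 87.2) and 6 of 7 in Fasn-R1812W (85.7%, 42.1 to 99.6). The same held for 2 of 2 and 7 of 9 other myeloid nuclei and for 1 of 1 and 6 of 7 undivided nuclei. Among microglial nuclei it held for 0 of 25 in WT, an interval up to 13.7%, and 2 of 29 in Fasn-R1812W (6.90%, 0.846 to 22.8). Precursor nuclei gave 0 of 229 and 5 of 253 (1.98%). Without thinning, at the 10-read level, the counts were 9 of 14 and 6 of 7 S100a8/S100a9, 2 of 2 and 6 of 9 other myeloid, 1 of 1 and 6 of 7 undivided, 6 of 16 lymphoid, 0 of 25 and 2 of 29 microglial, and 0 of 229 and 4 of 253 precursor nuclei. The intervals of S100a8/S100a9 and microglial nuclei did not overlap within either library, although nuclei of 1 library are not replicates and the difference was not tested. Lymphoid nuclei lay between, at 5 of 16 (31.3%, 11.02 to 58.7), with 1 of 6 CD3 and 2 of 7 NK receptor nuclei.

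Single genes of the list showed which interferon products these were. Oasl2, an oligoadenylate synthetase-like protein, was on in 8 of 14 WT and 4 of 7 Fasn-R1812W S100a8/S100a9 nuclei and in 0 microglial nuclei of either library. Rsad2, the antiviral protein viperin, was on in 7 WT nuclei and 1 Fasn-R1812W nucleus, where it reached 16019 CPM. Irf7, a factor that amplifies interferon genes, was on in 4 and 0, and Gbp7, a guanylate-binding GTPase, in 5 and 4. The genes on thus varied from nucleus to nucleus, and none of these 4 was on in every S100a8/S100a9 nucleus of either library.

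Genes of antigen presentation were counted in each set. Of the MHC class I and peptide loading list, which serves every nucleated cell, 3 or more of 18 genes were on after thinning in 12 of 14 and 6 of 7 S100a8/S100a9 nuclei, in 2 of 2 and 9 of 9 other myeloid nuclei and in 16 of 16 lymphoid nuclei. Microglial nuclei gave 13 of 25 and 19 of 29, and precursor nuclei 28 of 229 and 49 of 253. Of the MHC class II list, which serves professional antigen-presenting cells, 3 or more of 10 were on in 0 of 14 and 0 of 7 S100a8/S100a9 nuclei, in 2 of 2 and 6 of 9 other myeloid nuclei, in 1 of 16 lymphoid nuclei and in 0 of 25 and 2 of 29 microglial nuclei. Without thinning these counts were 11, 6, 2, 9, 16, 13, 17, 22 and 40 for class I in the order given, and 0, 0, 1, 6, 1, 0 and 2 for class II. H2-Ab1 of the class II list was also a gene of the rule. Each other myeloid nucleus met the rule with 1 myeloid gene and Ptprc, H2-Ab1 or both. The class II counts of that set therefore follow in part from the choice, and no count without H2-Ab1 was made.

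**Figure D4:**
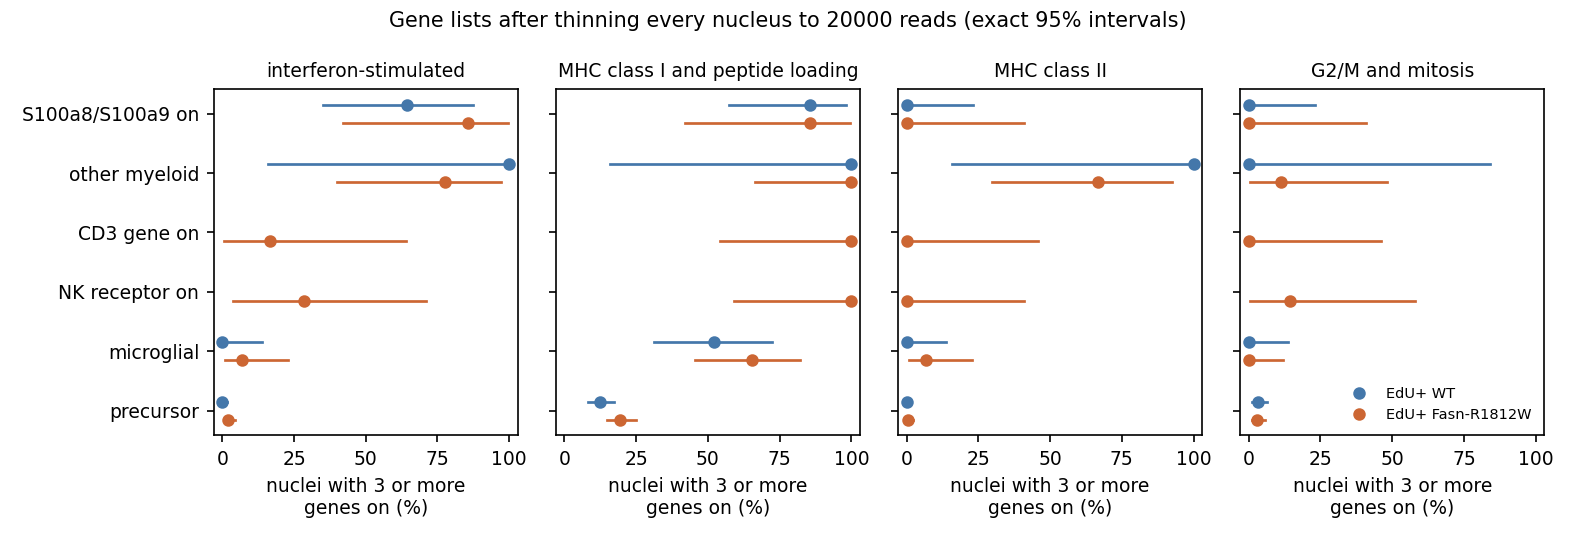
Share of nuclei (horizontal axes, %) with 3 or more genes on of 4 lists after thinning every nucleus to 20000 reads, for the sets of leukocyte-gene nuclei and for microglial and precursor nuclei, with exact 95% intervals. In the first panel S100a8/S100a9 nuclei stand at 64.3% in WT and 85.7% in Fasn-R1812W, and microglial nuclei at 0 and 6.90%; in the third panel S100a8/S100a9 nuclei stand at 0 in both.

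The other myeloid nuclei carried genes of monocytes, macrophages and dendritic cells in varied mixtures. Lyz2, lysozyme of myeloid cells (chromosome 10, 117277331 to 117282321, minus strand), had 428 and 28674 CPM in the 2 WT nuclei and was 220.3 at the lowest, 10175 at the median and 39376 at the highest in the 9 Fasn-R1812W nuclei. Csf1r, the growth factor receptor of monocytes and macrophages, was on in 2 and 6. Ccr2, the receptor by which monocytes leave marrow and enter tissue, was on in 1 of 2 and 5 of 9 (0, 1918 and 4973 CPM). Ms4a6c, a monocyte membrane gene, was on in 1 and 6. Cx3cr1, a chemokine receptor of both microglia and patrolling monocytes, was on in 0 of 2 and 5 of 9. The rule itself allowed no further microglial exclusion gene to be on in those 5, so its absence is no result. The other 2 members with Cx3cr1 on were undivided nuclei.

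MHC class II genes were on together in most of them. H2-Ab1, a class II beta chain, had 397 and 1667 CPM in WT and 0, 5487 and 11327 CPM at the lowest, median and highest in Fasn-R1812W. Cd74, the invariant chain that guides class II molecules, was on in 1 of 2 and 5 of 9 nuclei (0, 2365 and 17672 CPM). Ms4a7, found in macrophages of the brain's borders, was on in 0 of 2 and 5 of 9, and Mrc1, the mannose receptor of such macrophages, in 1 and 4. Other microglial genes were read there too: a median of 6 of 18 were on in the 9 Fasn-R1812W nuclei (1 to 9; summed level 413 to 51949.7 CPM), against 13 (3 to 16) in microglial nuclei of that library. In the 2 WT nuclei 4 and 6 were on. Their part in the set's genes was not tested.

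Nuclei that met the rule and were classed as lymphoid were all of the Fasn-R1812W library. Genes of lymphocytes were still read in WT nuclei outside the rule: 1 had Cd3g on (330 reads), 1 had Nkg7 (135 reads) with 6 of 14 genes of the B and plasma cell list, and another had 3 of these, which are not among the rule's genes. In Fasn-R1812W 3 nuclei outside the members had 4, 5 and 6 of the 14 B cell genes on. The CD3 nuclei carried genes of the T cell receptor, most of them with those of CD8. Cd3g, a chain of the T cell receptor complex, was 144 at the lowest, 2099 at the median and 3361 at the highest CPM in the 6 nuclei, and Cd3e and Cd3d were each on in 4; these genes chose the set. Cd8a and Cd8b1, the chains of the CD8 co-receptor and no part of the rule, were both on in 4 of 6 (66.7%, exact 95% interval 22.3 to 95.7), with 0, 379 and 2506 CPM of Cd8a at the lowest, median and highest. Cd4, the co-receptor of helper T cells, had 0 reads in all 6, which allows a share of up to 50%, and was on in 0 of the 56 members. Of the 4 CD8 nuclei none had Trdc, the constant region of the gamma-delta receptor, on, whereas 1 of the 2 others did.

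Constant region genes of the T cell receptor and Cxcr6 were on in most CD3 nuclei. Trbc2, a beta chain constant region, was on in 5 of 6 and Trbc1, its near copy, in 4, and reads may be split between them. Cxcr6, a chemokine receptor of T cells that stay in tissues, was on in 5 of 6 (0, 2128 and 4888 CPM), against 1 of 7 NK receptor nuclei. Of the 14 genes of the list for residency and circulation of T cells, 1 was on in at least 3 of the 6 CD3 nuclei, and a median of 2.5 were on in each. Xcl1, a chemokine that draws dendritic cells, was on in 4 of 6 and 4 of 7.

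Granzyme and perforin genes were on in more NK receptor than CD3 nuclei. At least 1 of Gzma, Gzmb and Prf1, granzymes A and B and perforin, was on in 7 of 7 NK receptor nuclei (59.0 to 100%) and 1 of 6 CD3 nuclei (16.7%, 0.421 to 64.1). These intervals overlapped, and NK receptor nuclei had more reads (median 918153 against 490347). Over a list of 15 cytotoxic effectors, 2 of them rule genes, the sets overlapped too, with 5 to 9 on in NK receptor and 3 to 8 in CD3 nuclei. Gzma, none of whose values entered the rule, was 12.3 at the lowest, 5144 at the median and 24701 at the highest CPM in the NK receptor nuclei and at most 2.22 CPM in the CD3 nuclei. Prf1 was on in 4 and 1, and Gzmb in 3 and 0. By contrast Ccl5, a chemokine of activated killer cells and a gene of the rule, was on in all 13, at 2162, 4496 and 9595 CPM in CD3 and 782, 5191 and 8783 CPM in NK receptor nuclei. Nkg7, a granule membrane protein (chromosome 7, 43437073 to 43438249, plus strand), was on in 4 of 6 and 7 of 7, and Ms4a4b, a lymphocyte membrane gene with close copies, in 6 of 6 and 7 of 7.

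The NK receptor nuclei carried a broad set of NK genes. Ncr1 was 2.22 at the lowest, 3039 at the median and 6506 at the highest CPM in the 7 nuclei, and Ncr1 and Klrb1c, which encodes NK1.1, were both on in 5; these 2 genes chose the set. Klrd1, the CD94 receptor for MHC class I, was on in 7 of 7 (496, 1344 and 2983 CPM) and in 3 of 6 CD3 nuclei. Klrk1, the activating receptor NKG2D, was on in 6 and 4, and Klre1 in 6 and 2; genes of this family are close copies that may share reads. Tyrobp, the signalling adaptor DAP12, was on in 6 of 7 and 1 of 6, and Id2, a factor needed for NK cells, in 7 and 3. Tbx21 and Eomes, the T-box factors of NK cells, were on in 2 and 2 of 7. Trbc1 was on in 6 of 7, while Trac, the alpha chain constant region, and Cd8a had 0 reads.

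The 3 other lymphoid nuclei each differed. In 1, Ccl5 (2177 reads) was on with Ptprc (925 reads). Another had the vessel gene Flt1 on (430 reads) beside H2-Ab1 (295 reads), and 6 of the 10 genes of the endothelial and mural list in all. The third had Clec9a (1172 reads), a receptor of dendritic cells, with Cd209a (548 reads) and Itgax (489 reads). The class name of the latter pair therefore goes against other genes they carried.

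Undivided nuclei carried genes of several kinds of leukocyte. The single WT nucleus had 11 of the 16 genes of the monocyte list on, of classical monocytes (Ly6c2, 235 reads) and of patrolling ones together: Itgal, an integrin chain, had 1333 reads, Lyz2 1181, Treml4 169, Cd300e 175 and Spn 166. In Fasn-R1812W, 1 nucleus carried B cell genes, with 272 reads of Cd79a, 289 of Ms4a1 and 706 of Ighm, the heavy chain of IgM. Another had border macrophage genes, with 686 reads of Stab1, 249 of Mrc1 and 150 of Cd163. A further one had dendritic cell genes, with 988 reads of Irf8 and 673 of Clec9a. A group of 3 joined Lyz2 (101, 684 and 18438 reads) with the monocyte receptor Ccr2 (818, 474 and 1748 reads) and with Ms4a4b.

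The last undivided nucleus stood out for early granule and cell cycle genes. It had 1593 reads of Mpo, myeloperoxidase, 777 of Prtn3, proteinase 3, 760 of Ctsg, cathepsin G, and 242 of Ms4a3, all made in marrow precursors. With 5464 genes and 274637 reads it had the most genes of all members, and 13 genes of the G1/S list and 8 of the G2/M list were on, Mki67 at 291 reads. Mpo, Prtn3 and Ctsg were on together in no other member. Reads of Nkg7 (56) and Lyz2 (405) met the rule, and whether the well held 1 nucleus was not tested.

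Few members carried genes of ongoing division, although all had been sorted for EdU. After thinning, 3 or more of 24 genes of the G2/M list were on in 0 of 17 WT members, an interval up to 19.5%, and 3 of 39 in Fasn-R1812W (7.69%, 1.62 to 20.9). Precursor nuclei gave 7 of 229 (3.06%) and 7 of 253 (2.77%), and all 4 counts were the same without thinning. The 3 members were 1 NK receptor nucleus (393 reads of Top2a, DNA topoisomerase II alpha), 1 other myeloid nucleus (419 reads of Top2a) and the nucleus with primary granule genes. S100a8/S100a9 nuclei gave 0 of 14 and 0 of 7, intervals up to 23.2% and 41.0%.

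Fasn, the gene that carries the variant (chromosome 11, 120805846 to 120824547, minus strand), was hardly read in these nuclei. It was on in 0 of 17 WT members and 3 of 39 in Fasn-R1812W (7.69%, 1.62 to 20.9), namely 2 NK receptor nuclei with 106 and 178 reads and the nucleus with primary granule genes with 51. Myeloid nuclei had 2 reads of Fasn in all in each library. Precursor nuclei had it on in 21 of 229 and 35 of 253. The variant changes the protein and not the amount of RNA by design, so these reads do not check the labels.

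The lymphoid and myeloid nuclei of the Fasn-R1812W library were compared over all genes, as 16 nuclei against 16. The lymphoid nuclei included the 3 others, some of which carried genes that go against the class name. Of 4748 genes tested, 57.5% were at least 4-fold apart, 33% higher in lymphoid and 24.5% higher in myeloid nuclei, with a median log2 ratio of 0.59. Since measured genes cut the classes, these values describe the split and nothing is read from them. The T cell receptor list, for signalling from the antigen receptor, had 19 of 20 genes higher in lymphoid nuclei, the NK receptor list 14 of 16 and the GIMAP list, GTPases of lymphocyte survival, 8 of 8. The mature neutrophil list had 16 of 17 higher in myeloid nuclei, the secondary and tertiary granule list 12 of 16 and the MHC class II list 8 of 9. Genes of the rule were counted in these tallies. They were 3 in the T cell receptor list, 1 in the NK receptor list and 1 in the GIMAP list. The mature neutrophil list held 3 and the MHC class II list 1. The pan-leukocyte list had 0 higher and 2 lower of 20, with a median log2 ratio of -0.05. The interferon list had 4 higher and 9 lower of 18 (median -2.05). With the myeloid nuclei of both libraries pooled, 50.9% of 4084 genes were apart, 34.2% higher in lymphoid and 16.7% higher in myeloid nuclei.

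Genes outside the rule with the largest ratios were nearly at 0 in the other class. In lymphoid nuclei Ptprcap, which binds CD45, had 1035 CPM against 0.433 in myeloid nuclei (10151 and 2 reads). Gimap6 had 1061 and 1.08 CPM, Klrc2, an NKG2 receptor, 573 and 0.433, and Ablim1, an actin-binding protein, 682 and 1.73. Genes of general cell functions were among them, such as Gabarapl2 of autophagy (558 against 1.73 CPM) and Ran of nuclear transport (257 against 0.649). In myeloid nuclei Csf3r had 2463 CPM against 1.12. Ccl6, a myeloid chemokine, had 1292 against 0.306, and Pirb, an inhibitory receptor, 1067 against 0.306. Alox5ap, needed for leukotriene synthesis, had 361 against 0.408, and Pld4, a nuclease of endosomes, 1215 against 1.94 CPM. The counts in the lower class were 0 to 36 reads over 16 nuclei.

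Myeloid nuclei were the only class that allowed the genotypes to be set side by side. The 16 WT nuclei were 14 S100a8/S100a9 and 2 other myeloid nuclei, and the 16 Fasn-R1812W nuclei 7 and 9, so the mix of cells differed. Of 3395 genes, 74.1% were at least 2-fold apart, 46.3% higher and 27.8% lower in Fasn-R1812W, with a median log2 ratio of 0.67. Of the genes apart 62.5% were higher in Fasn-R1812W, but 73.8% under TMM scaling (median 1.40) and 50.01% with nuclei of 1000 genes and 50000 reads (median -0.08), so the split depended on both. That filter left 3 WT nuclei, 1 S100a8/S100a9 and 2 other myeloid, against 7 and 7 in Fasn-R1812W. MHC class II genes were higher in 7 of 8 (median 3.56) and border macrophage genes in 4 of 5. Mature neutrophil genes were higher in 1 and lower in 10 of 21 (median -0.92), and interferon genes higher in 1 and lower in 10 of 17 (median -1.55).

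Within S100a8/S100a9 nuclei alone, a larger share of genes lay apart between the libraries. Of 2883 genes, 83.2% were at least 2-fold apart, 54.2% higher and 29% lower in Fasn-R1812W, and the median log2 ratio was 1.51. Genes higher in Fasn-R1812W were 65.2% of those apart, and 76.9% under TMM scaling (median 2.88). Mature neutrophil genes were then higher in 2 and lower in 7 of 20 (median -0.27), granule genes higher in 1 and lower in 1 of 16 and interferon genes higher in 3 and lower in 7 of 14 (median -1.16). Adhesion and trafficking receptors, which guide cells out of vessels, were higher in 1 and lower in 9 of 12 (median -1.24). Thinned to 20000 reads, these nuclei had a median of 516 genes in WT and 880 in Fasn-R1812W, and 804 of the genes tested had no read in WT. With 1 library per genotype, none of these shares, near the backgrounds or far from them, is read as an effect of genotype.

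The genes farthest apart between the genotypes in myeloid nuclei included regulators of signalling and of the cytoskeleton. Higher in Fasn-R1812W were Nmt1, an N-myristoyltransferase (153 CPM against 0 reads), and Cbl, a ubiquitin ligase of receptor signalling (1266 against 29 CPM, log2 ratio 5.40). Wnk1, a kinase of ion transport, followed (1162 against 89.3 CPM, 3.69), with Nisch, Tmed5, Spopl, Ankrd44 and Rsrp1 at log2 ratios of 2.44 to 4.23. Higher in WT were Tuba1a, a tubulin (129.5 against 12.3 CPM, log2 ratio -3.29), Myl6, a myosin light chain (1085 against 208 CPM), and Arpc2, of the actin-nucleating complex (934 against 187 CPM). Taldo1, of the pentose phosphate pathway, had 1047 against 215 CPM, and Pygl, of glycogen breakdown, 854 against 239. Samhd1, which breaks down nucleotides (-1.72), Adipor1 (-1.70) and the interferon gene Ddx60 (-1.64) depended on scaling or on the filter for nuclei. Under TMM scaling these 3 came to -0.98, -0.97 and -0.91, and with nuclei of 1000 genes and 50000 reads Adipor1 turned to 7.16 and Ddx60 to 2.10, while Taldo1 came to -0.16. Of these genes, Tmed5 alone went the other way in S100a8/S100a9 nuclei (-1.19).

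Markers of neurons and precursors were low at the median of the members. The lists of astrocytes, mature oligodendrocytes, neuroblasts and vessel cells are not given here for the members as a whole. Neuron genes, 11 in the files, were on at 0 at the median in both libraries, and the summed level had a median of 0 CPM for WT and 25.6 CPM for Fasn-R1812W members (0 to 6491 and 0 to 4955). Precursor genes outside the exclusion list were on at 0 at the median too, with summed levels of 0 to 1211 CPM and 19.4 to 3389 CPM. Ttr, transthyretin of the choroid plexus, was on in 4 of 17 and 15 of 39 members and in 93 of 229 and 90 of 253 precursor nuclei. Its part in the members' genes was not tested.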

How the data were processed

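Single nuclei were read by Smart-seq2 in 4 libraries of 384 wells, although 382 nuclei per library are stated and no label says which wells were empty. The authors deposited raw counts, whole numbers of reads for each gene in each well. The submitters' processing notes name Trimmomatic 0.36, STAR 2.5.3a and build GRCm38.p5. How reads were assigned to genes, and whether by strand, is not given in the sources used here, so reads of a gene and of one on the opposite strand cannot be told apart. Of 25567 genes, 25395 were given a symbol by identifier, and gene positions were taken from a GENCODE annotation of the same build. Upstream sequences came from RefSeq (GRCm38.p6). Embryonic nuclei named in the series were not analysed here, and values of some single genes are not reported here.

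Counts were summed over the nuclei of a class and scaled to the summed reads of genes not encoded by mitochondria, as CPM, and log2 ratios were taken after adding 1 CPM, which understates ratios of low genes. Genes with 10 CPM and on in 10% of nuclei in either class were tested for a distance of at least 4-fold (classes) or 2-fold (genotypes). With 1 library per group no test was run, no p-value was computed and nuclei were not treated as replicates. A joint fit of class over libraries was not run. Intervals of shares are exact Clopper-Pearson and those of differences Newcombe, at 95%. Where a count of 0 is said to allow a share, the limit is 3 counts of the total. Where an interval is given beside a count of 0, it is the exact one. No doublet caller was run. Thinned nuclei were drawn down to 20000 reads, with a gene on at 2 reads.

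The members, gene lists and smaller sets were chosen with earlier results of these data known. Named genes were the 14 rule genes, Fasn, the members of each list on in the most nuclei, the 12 per direction with the largest ratio between classes (on in 25% of nuclei) and the 8 per direction between genotypes in a class of at least 10 nuclei per library (20 CPM, on in 20%). In both of these no nucleus held over 30% of the reads, and rule genes and predicted genes were left out. Genes named outside this rule were chosen after their values were seen. Simulated counts of 25567 genes were used to check the direction of the ratios: for each of the comparison of classes and that of genotypes in myeloid nuclei, 50 of 50 genes changed by each of 4-, 2-, 0.5- and 0.25-fold went in the right direction. Only the direction was checked, so this says nothing of the 4-fold and 2-fold calls. Alternatives were other levels for a gene to be on, other filters on nuclei and genes, thinning, other scalings (TMM from edgeR 4.0.16 in R 4.3.3), the longer marker lists and removal of reads that followed the plate indexes. Python 3.11.15, numpy 2.4.6, scipy 1.17.1, pandas 2.3.3 and matplotlib 3.10.9 were used.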

Additional observations from a re-analysis of the deposited data

How the results depend on the processing

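No paired analysis was possible because each group was 1 library and no result came from a test. The difference in the share of leukocyte-gene nuclei, 5.54 points, ranged from 4.43 (no filter on nuclei) to 8.24 (nuclei of 1000 genes and 50000 reads). Its part in Fasn-R1812W ranged from 9.04% to 12.2%, and the lymphoid share of members there from 38.5% to 45.7%, with 0 WT nuclei classed as lymphoid under each alternative run. The WT share moved to 2.40% (4 of 167) with nuclei of 1000 genes and 50000 reads, a filter that the low gene number of WT members makes strict. The counts of genes apart followed the number of genes tested. Without a gene filter they came to 6161 (classes), 7640 (genotypes, myeloid) and 6236 (genotypes, S100a8/S100a9), and at 50 CPM and on in 20% of nuclei to 824, 683 and 733. Of the named genes, all 216 values between classes over 24 genes and 9 alternatives kept their side. Between genotypes 2 of 144 values changed side, Adipor1 (7.16) and Ddx60 (2.10) with nuclei of 1000 genes and 50000 reads, which left 3 WT myeloid nuclei. Another 4 kept their side but came to less than 2-fold. They were Taldo1 (-0.16) with that filter, and Samhd1 (-0.98), Adipor1 (-0.97) and Ddx60 (-0.91) under TMM scaling. The other 138 kept their side, and the cause of the exceptions was not tested. Part of these values could not change side. The alternatives for the gene filter alter which genes are tested and leave the ratios as they are. A smaller added value (0.1 CPM) cannot turn the side of a ratio. Genes named between genotypes had been chosen with mean CPM per nucleus in the same direction, which fixed that alternative. The counts over 9 alternatives therefore overstate how far the values were checked. WT held no lymphoid nucleus, so classes in WT and genotypes in lymphoid nuclei were not compared, and the stricter filter on nuclei was not run for S100a8/S100a9 nuclei, since fewer than 2 were left in WT. Removal of reads that followed the plate indexes, the smaller sets and the comparison within S100a8/S100a9 nuclei were chosen after seeing the data. Shares of 0 in sets of 6 to 17 nuclei allow up to 50% to 17.6%, so a gene on in none of them may still be expressed in part of such cells.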
